A study of Homo sapiens with 30 samples.

Results

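The genes described here make up the nuclear arm of canonical Wnt signalling: CTNNB1, which encodes beta-catenin, the DNA-binding factor genes LEF1, TCF7, TCF7L1 and TCF7L2, the coactivator genes BCL9, BCL9L and PYGO2, and the corepressor genes TLE1 and TLE3. They were taken by gene symbol, 10 of the 57373 genes in the deposited table, and all 10 were among the 18485 genes that passed a filter on low counts. TCF7 passed that filter on its level in the mock libraries, so its place among the tested genes is no support for its differences. RNA was sequenced from U2OS cells, an established human osteosarcoma line, in 6 groups of 5 libraries that the labels call biological replicates. The groups were mock-transfected cells (mock), cells given CHIR99021 (CHIR), cells overexpressing wild-type FOXP2 (WT FOXP2), the same with CHIR99021 (WT FOXP2 + CHIR), cells overexpressing a FOXP2 that lacks residues 264 to 272 (dhelix FOXP2), and the same with CHIR99021 (dhelix FOXP2 + CHIR). CHIR99021 was present at 5 µM from 72 h before transfection, and FOXP2 plasmid (500 ng) was left on the cells for 48 h. The study addressed how beta-catenin bears on transcriptional regulation by FOXP2. The labels do not say whether the mock and CHIR cells received an empty plasmid, or whether the CHIR cells were mock-transfected, so FOXP2 and plasmid DNA cannot be told apart in comparisons with those groups, nor CHIR99021 and transfection in CHIR against mock.

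As background, beta-catenin is held low in resting cells by a destruction complex in which the kinase GSK3 marks it for degradation. CHIR99021 inhibits GSK3, beta-catenin protein then accumulates, enters the nucleus and binds TCF/LEF proteins on DNA. TCF/LEF proteins without beta-catenin recruit Groucho-type corepressors of the TLE family, while beta-catenin brings BCL9 or BCL9L, which in turn tether Pygopus proteins such as PYGO2. LEF1 and TCF7 act mostly as activators and TCF7L1 mostly as a repressor, and TCF7L2 can act either way. FOXP2 is a forkhead transcription factor, and Wnt signalling in the osteoblast lineage, to which this tumour line belongs, promotes bone formation. The assay measured RNA, so the accumulation of beta-catenin protein itself was not observed here.

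The sequences before the start sites of CTNNB1, LEF1 and TCF7L2 are shown because LEF1 rose with CHIR99021 in all 3 backgrounds, and because CTNNB1 and TCF7L2 moved together over the libraries. Each is the 250 bases before a start site, 5′ to 3′ on the gene's strand, from RefSeq on GRCh38.p14. They lie at chr3:41199255-41199504 on the plus strand for CTNNB1, chr4:108166302-108166551 on the minus strand for LEF1, chr10:112949997-112950246 on the plus strand for the first TCF7L2 start and chr10:113126383-113126632 on the plus strand for the second. Capitals mark matches to the motif letters given after the sequences.
CTNNB1: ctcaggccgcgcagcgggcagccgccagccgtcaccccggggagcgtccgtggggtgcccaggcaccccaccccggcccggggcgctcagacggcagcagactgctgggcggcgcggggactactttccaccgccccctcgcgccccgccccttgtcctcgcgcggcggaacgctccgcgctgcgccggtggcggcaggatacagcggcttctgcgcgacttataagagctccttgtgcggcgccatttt
LEF1: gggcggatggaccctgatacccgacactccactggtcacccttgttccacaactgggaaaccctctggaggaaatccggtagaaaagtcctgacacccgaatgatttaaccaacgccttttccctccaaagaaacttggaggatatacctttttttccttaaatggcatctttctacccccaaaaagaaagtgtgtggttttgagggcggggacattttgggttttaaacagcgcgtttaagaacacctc
TCF7L2, first start: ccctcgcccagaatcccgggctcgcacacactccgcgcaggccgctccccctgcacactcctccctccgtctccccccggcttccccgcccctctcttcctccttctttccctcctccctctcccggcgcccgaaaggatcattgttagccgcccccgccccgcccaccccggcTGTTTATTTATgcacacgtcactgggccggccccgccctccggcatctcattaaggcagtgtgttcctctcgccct
TCF7L2, second start: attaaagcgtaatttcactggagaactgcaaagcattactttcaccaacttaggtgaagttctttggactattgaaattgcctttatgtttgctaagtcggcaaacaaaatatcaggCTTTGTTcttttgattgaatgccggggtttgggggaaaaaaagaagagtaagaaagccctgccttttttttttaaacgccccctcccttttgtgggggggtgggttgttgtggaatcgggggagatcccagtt

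Letters of the TCF/LEF motif (CTTTGAA or CTTTGAT or CTTTGTA or CTTTGTT) and of a forkhead motif (TGTTTAC or TGTTTAT or TATTTAT or TATTTGT) were searched on both strands. RefSeq promoters were matched for 9 of the 10 members, with 14 start sites in all. The TCF/LEF letters stood in 2 of these 14 windows, at the second start of TCF7 and the second start of TCF7L2, against 4199 (12%) of 35116 promoters of the same length. The forkhead letters stood in 4 of the 14, against 12.8% of all promoters: the first start of TCF7, the first start of TCF7L2, and, for TLE3, the first start and the third. At the first TCF7L2 start TGTTTAT and TATTTAT overlap, between 76 and 66 bases before the start. Neither set of letters was found in the windows of CTNNB1 and LEF1, which says only that these letters are not there. A match is a description of the sequence and no evidence of binding.

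Library totals ran from 15755842 to 29466652 counts. FOXP2 (ENSG00000128573), the overexpressed gene, stood at 0.898 CPM in mock and 0.504 CPM in CHIR, against 7076 CPM with WT FOXP2, 15299 CPM with WT FOXP2 + CHIR, 5319 CPM with dhelix FOXP2 and 13481 CPM with dhelix FOXP2 + CHIR (means of 5 libraries). The FOXP2 groups with CHIR99021 therefore also held more FOXP2 RNA than those without it, and dhelix groups less than WT groups. The genotype label of FOXP2 + CHIR replicate 1 does not name the wild type, and the title places it in the group. CHIR replicate 1 stood apart from its group, with a mean chi-square per gene of 28.5 against 7.40 to 10.8 for the other 4. Each mean is over all pairs of a library within its group, so those of the other 4 include their pair with replicate 1. Pairs with replicate 1 gave 18.8 to 34.8, and pairs among the other 4 gave 1.78 to 4.14. The mean over pairs was 10.9 for dhelix FOXP2 replicate 5 and 5.98 for WT FOXP2 + CHIR replicate 4, the highest of their groups. Of 7 osteoblast-lineage markers, 6 reached 1 CPM in every group, but their sum ran from 5258 to 5454 CPM in mock, 2839 to 3521 CPM in CHIR, 3420 to 3792 CPM with either FOXP2 form alone and 2045 to 2348 CPM with FOXP2 and CHIR99021. The sum does not describe every marker. Of the 6 tested, 1 was called higher and 5 lower in CHIR against mock, and 3 higher and 3 lower with each FOXP2 form against mock. Summed epithelial markers were at 360 to 400 CPM in mock, 331 to 410 CPM in CHIR and 543 to 689 CPM in the 4 FOXP2 groups. Of 4 tested, 2 were called higher and 2 lower with WT FOXP2 against mock, and 2 higher and 1 lower with dhelix FOXP2. Among all genes, 74.1% were called in CHIR against mock, 81.6% with WT FOXP2 and 80.5% with dhelix FOXP2. Summed endothelial markers (2 of 3 found) were at 3.63 to 5.25 CPM in mock, 2.16 to 3.51 CPM in CHIR and 2.15 to 3.31 CPM with WT FOXP2. They were at 7.51 to 9.88 CPM with dhelix FOXP2, 16.1 to 25.4 CPM with WT FOXP2 + CHIR and 39.4 to 47.6 CPM with dhelix FOXP2 + CHIR. In each of the last 2 groups only 1 of the 2 genes reached 1 CPM, so the sum there is mostly that of 1 gene. Summed blood markers ran from 0.294 to 0.715 CPM in mock and 2.26 to 2.98 CPM in CHIR, and reached 19.9 CPM in WT FOXP2 + CHIR, where ITGAM made up a mean of 16.5 CPM and PTPRC was at most 0.474 CPM. The part of these markers in the members' results was not tested. In bulk RNA, fewer cells with a transcript and less of it per cell cannot be told apart.

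Levels are given as CPM, counts scaled to a common library size. Divided by the length of the principal transcript, the mock levels ranged from 90.1 CPM per kb for CTNNB1 to 0.247 CPM per kb for TCF7. Among the coactivators in mock, PYGO2 stood at 30.4 CPM per kb, BCL9 at 17.5 CPM per kb and BCL9L at 15.0 CPM per kb. Between the corepressors, TLE3 stood at 15.0 CPM per kb and TLE1 at 10.4 CPM per kb. Of the DNA-binding factors, LEF1 stood at 12.9 CPM per kb, TCF7L2 at 8.30 CPM per kb and TCF7L1 at 5.42 CPM per kb. Across groups the ratio of the highest to the lowest group mean was 9.02 for TCF7, 5.81 for TCF7L1, 4.13 for LEF1, 2.29 for TLE3, 2.27 for TCF7L2, 1.97 for PYGO2, 1.64 for CTNNB1, 1.49 for BCL9L, 1.48 for BCL9 and 1.42 for TLE1. The DNA-binding factors thus spanned a wider range than beta-catenin or most cofactors. Mock was the highest group for 7 members: CTNNB1, TCF7, TCF7L1, TCF7L2, BCL9, PYGO2 and TLE3.

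**Figure D1:**
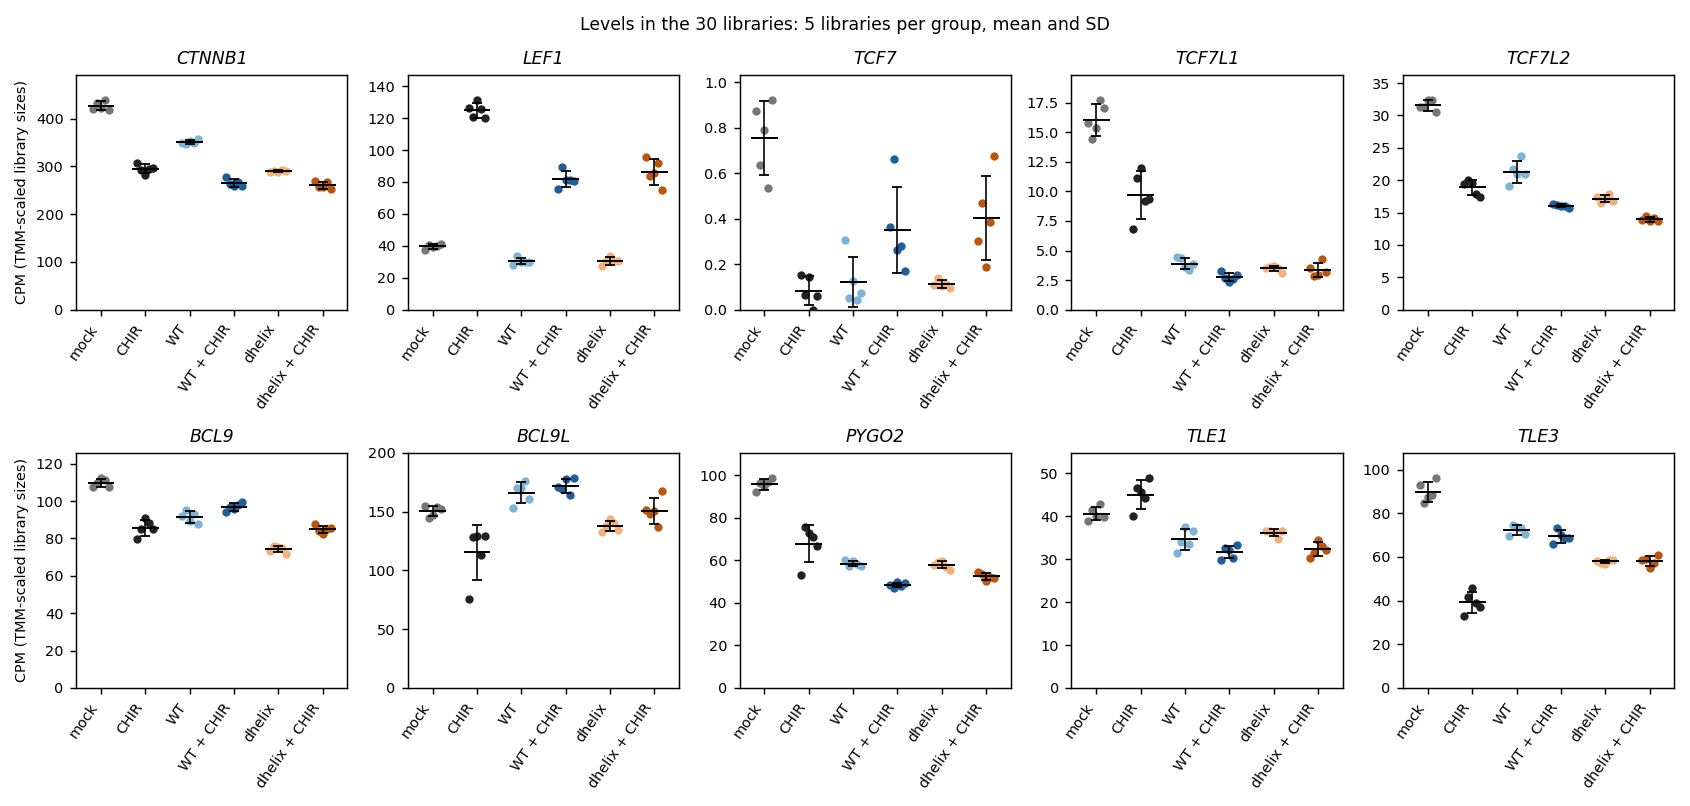
Level of each of the 10 genes in the 30 libraries, in CPM from TMM-scaled library sizes (vertical axes start at 0 and differ between panels). Points are libraries, the long bar is the mean of 5 and the whiskers are 1 SD. LEF1 is high in the 3 groups with CHIR, TCF7L1 is low in the 4 groups with a FOXP2 plasmid, and the lowest BCL9L value is CHIR replicate 1 at 75.6 CPM.

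The first comparison is of CHIR with mock, without added FOXP2. LEF1 rose and 8 of the 10 members fell, among them beta-catenin, the other 3 TCF/LEF genes, all 3 coactivators and TLE3. With edgeR's quasi-likelihood test at an adjusted p under 0.05, 2 members were called higher and 8 lower, where 38.8% of all genes tested were called higher, 35.3% lower and 74.1% in either direction. The median log2 change was −0.52 over the members and 0.02 over all genes tested. Against a 1.5-fold change, 4 members passed, LEF1, TCF7, TCF7L2 and TLE3, where 29.8% of all genes did. TCF7 was tested only because of its mock level, so its calls against mock are no support for a difference.

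CTNNB1 (ENSG00000168036) measured 420, 433, 423, 439 and 419 CPM in the 5 mock libraries and 307, 293, 282, 295 and 297 CPM in the CHIR libraries. Every CHIR library lay below every mock library, and CTNNB1 fell by 0.53 ± 0.03 on the log2 scale (SE; adjusted p = 3.28e-19, edgeR). LEF1 (ENSG00000138795), which is itself known as a target of the beta-catenin/TCF complex, measured 37.3, 40.7, 39.5, 39.9 and 41.0 CPM in mock and 126, 121, 132, 126 and 120 CPM in CHIR. The groups did not overlap, and LEF1 rose 3.15-fold, by 1.65 ± 0.06 (adjusted p = 4.04e-25, edgeR). The change was smaller in 88.7% of the genes tested. TCF7L2 (ENSG00000148737), at 31.3, 31.2, 32.4, 32.4 and 30.5 CPM in mock, measured 19.5, 20.03, 19.6, 17.9 and 17.4 CPM in CHIR. It fell by 0.74 ± 0.05 (adjusted p = 3.6e-16, edgeR), with no overlap. TCF7L1 (ENSG00000152284), from 14.4 to 17.8 CPM in mock and from 6.78 to 11.98 CPM in CHIR, fell by 0.72 ± 0.10 (adjusted p = 2.47e-08, edgeR). The 6.78 CPM was CHIR replicate 1, and without that library TCF7L1 changed by −0.65.

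TCF7 (ENSG00000081059) was close to the counting floor. Its 5 mock libraries held 18, 13, 24, 9 and 16 counts and its CHIR libraries 3, 1, 3, 0 and 1 counts. All CHIR libraries lay below all mock libraries, and the CHIR level was 0.118 of the mock level (95% interval 0.0492 to 0.244 from the summed counts, which covers counting error only). The fitted change was −3.00 ± 0.42. No p is given for it, because TCF7 passed the filter on low counts through its mock level. TCF7 shares 210 exon bases with SKP1 on the opposite strand, which stood at 115 to 148 CPM in the group means, and the strand setting of the counting is not given in the sources used here. The part of reads from SKP1 in these few counts was not tested.

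Among the cofactors, TLE3 (ENSG00000140332) showed the largest change, from 93.0, 84.8, 87.3, 88.2 and 96.2 CPM in mock to 32.7, 41.6, 45.7, 39.0 and 37.0 CPM in CHIR. The ranges were far apart, and TLE3 fell by 1.19 ± 0.05, to 0.437 of the mock level (adjusted p = 2.49e-21, edgeR). TLE1 (ENSG00000196781), the other Groucho-type corepressor, went the other way: 38.9 to 43.0 CPM in mock and 40.0 to 48.9 CPM in CHIR. These ranges overlap. TLE1 rose by 0.15 ± 0.05 (adjusted p = 0.00712, edgeR), a call lost without any of mock replicates 1, 3 and 5 or CHIR replicates 3 and 5 (adjusted p = 0.0604 to 0.119), without a filter (0.0606), with genes under a mean of 1 CPM removed (0.0793) and with only these groups in the fit (0.0705). PYGO2 (ENSG00000163348), the reader of histone tails at the end of the coactivator chain, measured 92.1 to 98.6 CPM in mock and 53.1, 75.6, 72.6, 70.7 and 66.7 CPM in CHIR, and fell by 0.50 ± 0.05 (adjusted p = 7.81e-11, edgeR). BCL9 (ENSG00000116128) measured 107 to 112 CPM in mock and 79.5 to 91.0 CPM in CHIR, and fell by 0.36 ± 0.03 (adjusted p = 1.16e-11, edgeR).

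BCL9L (ENSG00000186174), the paralogue of BCL9, measured 155, 144, 147, 154 and 152 CPM in mock and 75.6, 128, 130, 114 and 129 CPM in CHIR. All CHIR libraries were lower, with replicate 1 far below the rest. The fall was 0.39 ± 0.08 with that library (adjusted p = 0.000125, edgeR) and −0.30 without it (adjusted p = 3.94e-08, edgeR). PYGO2 changed by −0.46 without it. PYGO2 shares 335 exon bases with SHC1 on the same strand (267 to 369 CPM in the group means), and LEF1 shares 279 with LEF1-AS1 on the other strand (0.860 to 1.76 CPM).

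CHIR99021 was also compared in cells with each FOXP2 form. LEF1 rose again and beta-catenin, TCF7L2 and PYGO2 fell in both, while TLE3 no longer passed the test. With WT FOXP2, 3 members were called higher and 5 lower, where 34.8% of all genes were called higher, 30.2% lower and 64.9% in either direction, and 2 members passed 1.5-fold against 16.2% of genes. With dhelix FOXP2, 3 were called higher and 4 lower, against 34.1% higher, 29.1% lower and 63.2% in either direction, and 2 passed 1.5-fold against 14.6% of genes. FOXP2 RNA differed between the groups compared, as given above, and its part in these values was not tested.

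LEF1 measured 28.1, 33.4, 29.8, 29.7 and 30.1 CPM with WT FOXP2 and 75.6, 89.5, 81.1, 81.5 and 80.6 CPM with WT FOXP2 + CHIR. It rose by 1.43 ± 0.06 (adjusted p = 4.06e-22, edgeR). With dhelix FOXP2 it measured 27.1, 30.2, 33.5, 30.5 and 30.7 CPM, and with dhelix FOXP2 + CHIR 95.5, 83.7, 85.4, 92.0 and 74.8 CPM. It rose by 1.51 ± 0.06 (adjusted p = 5.5e-23, edgeR). In neither form did the groups overlap. CTNNB1 fell by 0.40 ± 0.03 with WT FOXP2 (346 to 357 CPM without and 258 to 278 CPM with CHIR99021) and by 0.16 ± 0.03 with dhelix FOXP2 (288 to 293 and 252 to 269 CPM). TCF7L2 fell by 0.41 ± 0.05 and 0.30 ± 0.05, and TCF7L1 by 0.48 ± 0.14 with WT FOXP2, while its change of −0.06 ± 0.14 with dhelix FOXP2 did not pass the test.

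TCF7 moved in the opposite direction to the one seen without FOXP2. Its libraries held 5, 1, 2, 1 and 2 counts with WT FOXP2 and 9, 14, 5, 5 and 3 counts with WT FOXP2 + CHIR, overlapping in their levels. The ratio was 3.34 (95% interval 1.66 to 7.27, counting error only) and the fitted rise 1.68 ± 0.46 (adjusted p = 0.00178, edgeR). Its place past 1.5-fold was lost without any of WT FOXP2 replicates 2, 4 and 5 or WT FOXP2 + CHIR replicate 2. With dhelix FOXP2 the counts were 3, 4, 3, 3 and 2, and with dhelix FOXP2 + CHIR 6, 8, 3, 7 and 12, a ratio of 3.59 (1.92 to 7.06) and a rise of 1.79 ± 0.42 (adjusted p = 0.000393, edgeR).

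TLE3 measured 69.7 to 74.4 CPM with WT FOXP2 and 65.8 to 73.5 CPM with WT FOXP2 + CHIR, a change of −0.06 (95% interval −0.16 to 0.04). With dhelix FOXP2 it measured 56.9 to 58.7 CPM and with dhelix FOXP2 + CHIR 54.98 to 61.1 CPM, a change of 0.01 (−0.10 to 0.11). Neither passed the test, and neither interval reaches the fall of 1.19 without FOXP2. With only the compared groups in the fit, the change with WT FOXP2 was called (−0.09, adjusted p = 0.0281). PYGO2 fell by 0.27 ± 0.05 and 0.14 ± 0.05, the latter call being lost without dhelix FOXP2 + CHIR replicate 3 (adjusted p = 0.0539, edgeR). BCL9 rose by 0.08 ± 0.03 and 0.19 ± 0.03, and TLE1 fell by 0.13 ± 0.05 and 0.16 ± 0.05. The BCL9 call with WT FOXP2 (adjusted p = 0.0322, edgeR) was lost without any of WT FOXP2 replicates 3 and 5 or any single WT FOXP2 + CHIR library (0.0562 to 0.16), without a filter (0.407), with only the compared groups (0.126) and without the 3 libraries that stood apart (0.0731). The BCL9 call with dhelix FOXP2 was lost without a filter (0.10, adjusted p = 0.098), and the TLE1 call with WT FOXP2 without WT FOXP2 replicate 3 or 5 (0.083 to 0.087). BCL9L did not pass the test in either form (0.05 and 0.13), though with dhelix FOXP2 it did with only the compared groups in the fit (0.09, adjusted p = 0.0326).

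**Figure D2:**
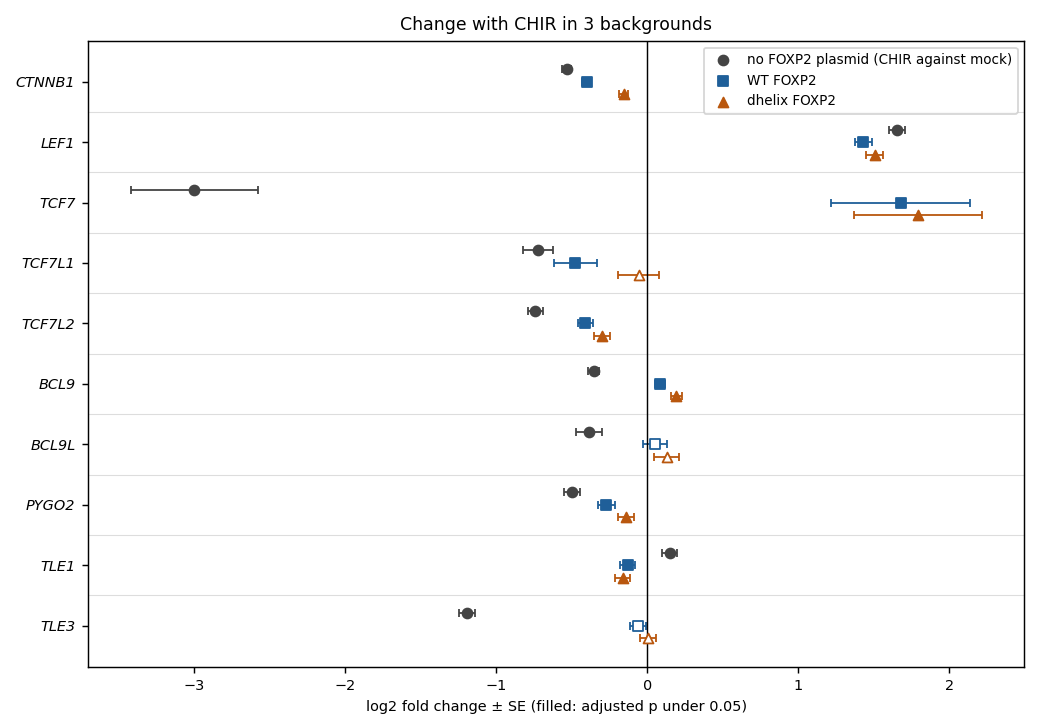
Change of each gene with CHIR99021 in 3 backgrounds, as a log2 fold change with its SE; filled symbols have an adjusted p under 0.05 and the vertical line is no change. LEF1 lies between 1.43 and 1.65 in all 3 backgrounds, TLE3 at −1.19 without FOXP2 and near 0 with it, and TCF7 on opposite sides of 0.

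The make-up of the TCF/LEF group was followed as the share of each gene in the summed CPM per kb of the 4 genes, over 5 libraries. LEF1 held 48.1% ± 1.3 (SD) in mock and 83.1% ± 1.3 in CHIR. With WT FOXP2 its share was 58.6% ± 1.3 and with WT FOXP2 + CHIR 83.4% ± 1.0. With dhelix FOXP2 it was 63.3% ± 2.0 and with dhelix FOXP2 + CHIR 85.0% ± 1.2. No library without CHIR99021 exceeded 65.5% and none with it fell below 81.3%. TCF7L1, the mostly repressive member, held 20.1% ± 1.3 in mock, 6.66% ± 1.25 in CHIR, 7.84% ± 1.08 with WT FOXP2 and 7.53% ± 0.57 with dhelix FOXP2. Its share was 2.94% ± 0.47 with WT FOXP2 + CHIR and 3.42% ± 0.45 with dhelix FOXP2 + CHIR. TCF7L2 held 30.9% ± 1.0 in mock, 33.3% ± 2.0 with WT FOXP2 and 28.9% ± 1.6 with dhelix FOXP2, against 10.1% to 13.3% in the groups with CHIR99021. TCF7 held under 1% in the mean of every group. The sum over the 4 genes was 26.9 CPM per kb in mock, 49.0 CPM per kb in CHIR, 16.8 and 31.9 CPM per kb with WT FOXP2 without and with CHIR99021, and 15.6 and 33.0 CPM per kb with dhelix FOXP2. Shares of 1 sum are not independent of each other, and no test was made of them.

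**Figure D3:**
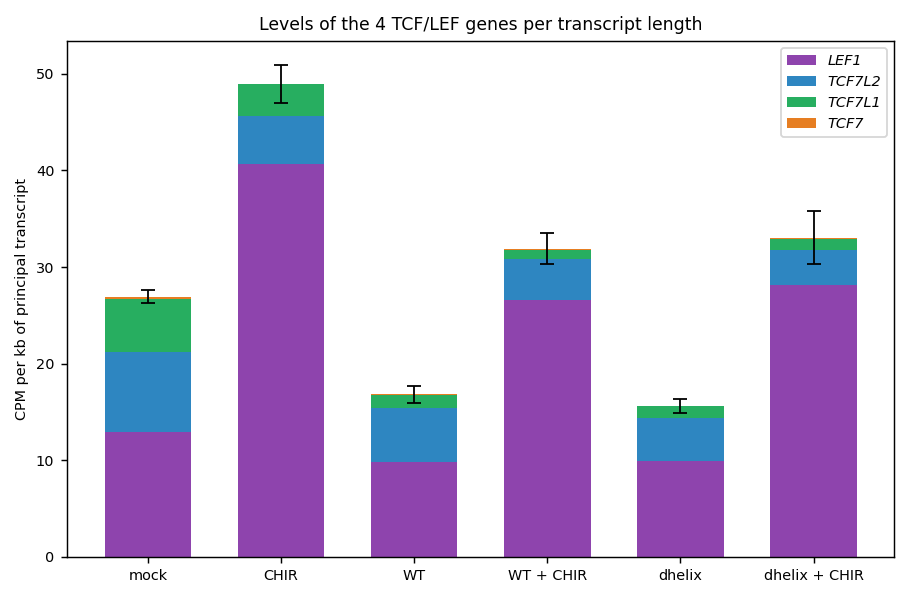
Stacked mean levels of LEF1, TCF7L2, TCF7L1 and TCF7 in each group, in CPM per kb of the principal transcript; the whiskers are 1 SD of the sum over 5 libraries. The sum is 26.9 in mock and 49.0 in CHIR, and LEF1 makes up over 80% of each bar with CHIR.

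The second question is how the same genes differed with a FOXP2 plasmid. Without CHIR99021 no member was called higher with either form. With WT FOXP2, 9 members fell, where 39.9% of all genes were called higher, 41.6% lower and 81.6% in either direction. Their median log2 change was −0.35 and that of all genes tested −0.02. Against 1.5-fold, TCF7, TCF7L1 and PYGO2 passed, 3 of 10, where 43.6% of genes did. With dhelix FOXP2, 9 members fell as well, where 39.6% of all genes were called higher, 40.9% lower and 80.5% in either direction, with a median of −0.60 against −0.02 over all genes. TCF7L2 passed 1.5-fold beside the former 3, making 4 of 10, where 40.3% of genes did. The limit given above for calls of TCF7 against mock holds for both forms. Both comparisons share the mock libraries.

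TCF7L1 gave the clearest difference. It measured 15.8, 14.4, 15.3, 17.8 and 17.1 CPM in mock, 4.43, 4.34, 3.56, 3.31 and 3.86 CPM with WT FOXP2, and 3.56, 3.57, 3.68, 3.56 and 3.06 CPM with dhelix FOXP2. All 10 FOXP2 libraries were below all mock libraries. TCF7L1 fell by 2.04 ± 0.11 with WT FOXP2 (4.12-fold lower, adjusted p = 3.64e-19, edgeR) and by 2.19 ± 0.11 with dhelix FOXP2 (4.57-fold lower, adjusted p = 1.72e-20, edgeR). TCF7, at the counts given above, was at 0.142 of the mock level with WT FOXP2 (95% interval 0.0681 to 0.268) and at 0.148 with dhelix FOXP2 (0.0794 to 0.26). LEF1 fell by 0.39 ± 0.06 with WT FOXP2 (adjusted p = 2.53e-07, edgeR) and by 0.39 ± 0.06 with dhelix FOXP2 (adjusted p = 2.25e-07, edgeR), its highest FOXP2 library being at 33.5 CPM and its lowest mock library at 37.3 CPM. TCF7L2 measured 19.1 to 23.7 CPM with WT FOXP2 and 16.5 to 17.9 CPM with dhelix FOXP2, and fell by 0.57 ± 0.05 and 0.88 ± 0.05. CTNNB1 fell by 0.28 ± 0.03 and 0.56 ± 0.03, each time with no overlap with mock.

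PYGO2 measured 59.9, 57.5, 59.7, 58.0 and 57.2 CPM with WT FOXP2 and 57.7, 59.3, 59.8, 56.8 and 55.6 CPM with dhelix FOXP2, all below the lowest mock library at 92.1 CPM. It fell by 0.71 ± 0.05 (adjusted p = 4.43e-15, edgeR) and by 0.72 ± 0.05 (adjusted p = 1.88e-15, edgeR). BCL9 fell by 0.26 ± 0.03 and 0.56 ± 0.03, TLE3 by 0.31 ± 0.05 and 0.63 ± 0.05, and TLE1 by 0.23 ± 0.05 and 0.17 ± 0.05. The TLE1 call with dhelix FOXP2 was lost without a filter (−0.10, adjusted p = 0.16). BCL9L was the member that passed with neither form: 153, 170, 170, 176 and 161 CPM with WT FOXP2 gave a change of 0.14 ± 0.08 (adjusted p = 0.106, edgeR), and 132, 138, 144, 141 and 135 CPM with dhelix FOXP2 gave −0.13 ± 0.08 (adjusted p = 0.153, edgeR). The dhelix libraries nevertheless all lay below the mock libraries. Without CHIR replicate 1, dhelix FOXP2 replicate 5 and WT FOXP2 + CHIR replicate 4 together both changes passed, at 0.15 (adjusted p = 0.00051) and −0.10 (adjusted p = 0.0214). Both also passed with only the compared groups in the fit, at 0.16 (adjusted p = 9.94e-06) and −0.10 (adjusted p = 0.000112), and the change with WT FOXP2 without a filter (0.17, adjusted p = 0.000734). The cause was not tested.

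With CHIR99021 in both arms, members were called in both directions with FOXP2. Against CHIR alone, WT FOXP2 + CHIR had 4 members higher (TCF7, BCL9, BCL9L and TLE3) and 6 lower, where 38.2% of all genes were called higher, 40.2% lower and 78.4% in either direction. TCF7, TCF7L1 and TLE3 passed 1.5-fold, 3 of 10, where 34.5% of genes did. With dhelix FOXP2 + CHIR, 3 members were higher (TCF7, BCL9L and TLE3) and 6 lower, where 37.0% of all genes were called higher, 38.9% lower and 75.9% in either direction. TCF7 and TCF7L1 passed 1.5-fold, 2 of 10, where 29.2% of genes did. The comparisons share the CHIR libraries.

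TLE3 measured 32.7, 41.6, 45.7, 39.0 and 37.0 CPM in CHIR and 65.8, 73.5, 70.0, 68.8 and 68.8 CPM with WT FOXP2 + CHIR. It rose by 0.82 ± 0.05 (adjusted p = 2.53e-16, edgeR), and by 0.57 ± 0.05 with dhelix FOXP2 + CHIR (58.6, 59.0, 54.98, 57.1 and 61.1 CPM; adjusted p = 1.22e-11, edgeR). None of these libraries overlapped with CHIR. TCF7 held 8 counts in all 5 CHIR libraries and 36 in the 5 libraries of each form, a ratio of 4.02 (95% interval 1.84 to 9.999) with WT FOXP2 and 4.52 (2.07 to 11.3) with dhelix FOXP2. TCF7L1 measured 2.37 to 3.29 CPM with WT FOXP2 + CHIR and 2.87 to 4.25 CPM with dhelix FOXP2 + CHIR, and fell by 1.80 ± 0.12 and 1.52 ± 0.12. LEF1 fell by 0.61 ± 0.05 and 0.53 ± 0.05, remaining above every library without CHIR99021.

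CTNNB1 fell by 0.15 ± 0.03 and 0.18 ± 0.03, TCF7L2 by 0.23 ± 0.05 and 0.44 ± 0.05, PYGO2 by 0.48 ± 0.05 and 0.37 ± 0.05 (the latter overlapping CHIR replicate 1), and TLE1 by 0.51 ± 0.05 and 0.48 ± 0.05. BCL9L rose by 0.58 ± 0.08 and 0.39 ± 0.08, values that became 0.49 and 0.29 without CHIR replicate 1. BCL9 rose by 0.18 ± 0.03 with WT FOXP2 + CHIR, and its change of −0.01 ± 0.03 with dhelix FOXP2 + CHIR did not pass the test.

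**Figure D4:**
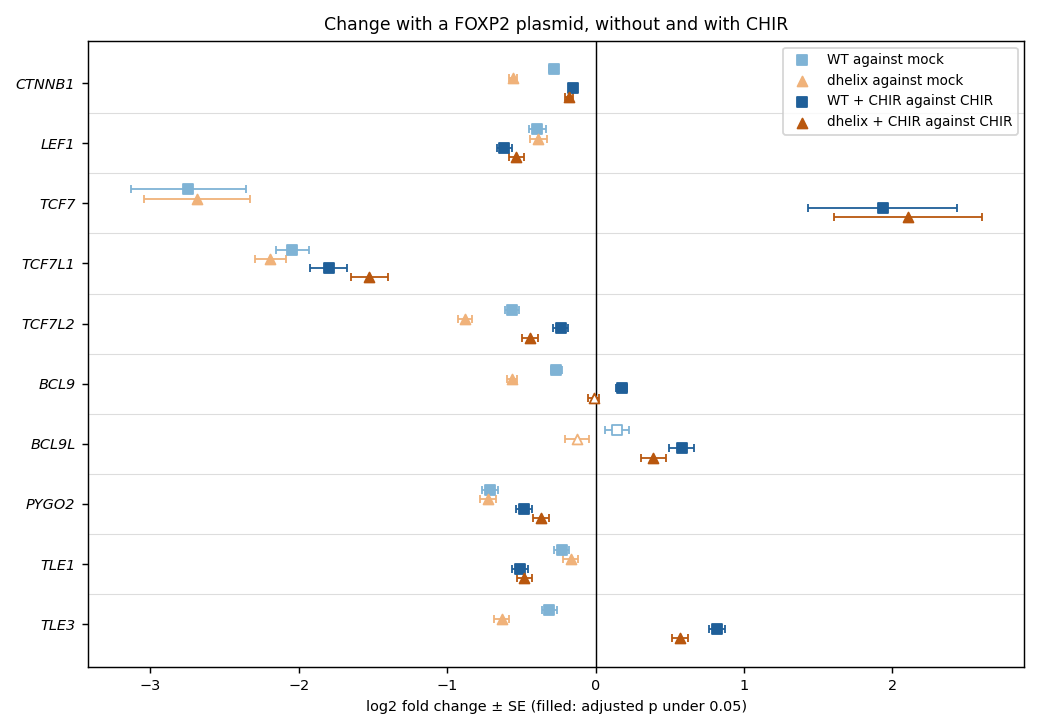
Change of each gene with WT or dhelix FOXP2, against mock without CHIR and against CHIR with it, as a log2 fold change with its SE; filled symbols have an adjusted p under 0.05. TCF7 and TLE3 lie below 0 without CHIR and above 0 with it, and TCF7L1 lies between −2.19 and −1.52 in all 4 comparisons.

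Whether the FOXP2 effect differed with CHIR99021 was tested by interaction terms, which compare the change from CHIR to FOXP2 + CHIR with the change from mock to FOXP2. FOXP2 RNA was higher in the FOXP2 groups with CHIR99021, as given above. The amount of FOXP2 and the presence of CHIR99021 therefore cannot be told apart in these terms. For WT FOXP2, 7 members had a positive and 2 a negative interaction, where 30.7% of all genes were positive, 34.9% negative and 65.6% either. The median was 0.29 over the members and −0.02 over all genes tested. For dhelix FOXP2, 8 were positive and 1 negative, where 31.2% of all genes were positive, 33.7% negative and 64.8% either, with a median of 0.48 against 0.00. TLE3 had an interaction of 1.13 ± 0.07 with WT FOXP2 (adjusted p = 6.17e-16, edgeR) and of 1.199 ± 0.07 with dhelix FOXP2 (adjusted p = 1.7e-16, edgeR). TCF7 had 4.68 ± 0.63 and 4.79 ± 0.61, resting on the 8 counts of the CHIR group and on the mock level that took it through the filter. BCL9 had 0.44 ± 0.05 and 0.55 ± 0.05, and TCF7L2 0.33 ± 0.07 and 0.44 ± 0.07.

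TLE1 had negative interactions, −0.28 ± 0.07 and −0.31 ± 0.07: its fall with FOXP2 was larger beside CHIR99021. CTNNB1 had 0.13 ± 0.04 with WT FOXP2, a call lost without a filter (adjusted p = 0.126, edgeR), and 0.38 ± 0.04 with dhelix FOXP2. LEF1 had −0.22 ± 0.08 with WT FOXP2 (adjusted p = 0.0146, edgeR), which was lost without mock replicate 1, CHIR replicate 3 or WT FOXP2 + CHIR replicate 1 (0.0527 to 0.0637) without the 3 libraries that stood apart (−0.20, adjusted p = 0.054), and with genes under a mean of 1 CPM removed (−0.15, adjusted p = 0.105). Its −0.15 ± 0.08 with dhelix FOXP2 did not pass (adjusted p = 0.0991, edgeR), but did without a filter (−0.22) and without dhelix FOXP2 replicate 1 or dhelix FOXP2 + CHIR replicate 1 (−0.19 each). TCF7L1 passed with dhelix FOXP2 (0.67 ± 0.17) and not with WT FOXP2 (0.25 ± 0.17, 95% interval −0.09 to 0.59), where it did without CHIR replicate 3 (0.37, adjusted p = 0.0475). BCL9L had 0.44 ± 0.12 and 0.51 ± 0.12, or 0.34 and 0.39 without CHIR replicate 1, and PYGO2 had 0.23 ± 0.08 and 0.36 ± 0.07.

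The third question is what the deletion of residues 264 to 272 changed. Without CHIR99021, dhelix FOXP2 libraries had less CTNNB1, TCF7L2, BCL9, BCL9L and TLE3 than WT FOXP2 libraries while no difference was called for the other 5 members. None of the 10 was called higher and 5 were called lower, where 16.9% of all genes were called higher, 18.7% lower and 35.6% in either direction. No member passed 1.5-fold, where 1.41% of genes did. The median log2 difference was −0.21 over the members and 0.00 over all genes tested. FOXP2 RNA itself was lower with the deletion, at 4655 to 6359 CPM against 5906 to 7806 CPM, and its part in these differences was not tested.

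CTNNB1 measured 349, 346, 353, 349 and 357 CPM with WT FOXP2 and 289, 290, 288, 293 and 290 CPM with dhelix FOXP2. All dhelix libraries were lower, and the difference was −0.27 ± 0.03 (adjusted p = 7.38e-10, edgeR). TLE3 measured 69.7, 74.4, 73.9, 73.4 and 70.4 CPM with WT FOXP2 and 58.3, 57.4, 56.9, 58.5 and 58.7 CPM with dhelix FOXP2, a difference of −0.32 ± 0.05 (adjusted p = 5.42e-06, edgeR). TCF7L2 differed by −0.32 ± 0.05, BCL9 by −0.30 ± 0.03 (87.6 to 95.2 against 71.7 to 76.0 CPM) and BCL9L by −0.27 ± 0.08 (153 to 176 against 132 to 144 CPM), without overlap. For LEF1 the difference was 0.01 (95% interval −0.11 to 0.12), for PYGO2 −0.01 (−0.12 to 0.09), for TLE1 0.06 (−0.04 to 0.16) and for TCF7L1 −0.15 (−0.40 to 0.11). For TCF7, with 11 and 15 counts in all, the ratio of 1.05 had an interval of 0.449 to 2.52, so that a difference was not detectable at this depth.

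With CHIR99021 in both arms the same contrast called 3 members lower, TCF7L2, BCL9 and TLE3, and none higher, where 16.6% of all genes were called higher, 13.9% lower and 30.6% in either direction. No member passed 1.5-fold, where 1.18% of genes did. TLE3 differed by −0.25 ± 0.05, TCF7L2 by −0.21 ± 0.05 and BCL9 by −0.19 ± 0.03, none overlapping between the groups. BCL9L measured 171, 170, 178, 164 and 179 CPM with WT FOXP2 + CHIR and 151, 148, 150, 137 and 167 CPM with dhelix FOXP2 + CHIR, and its difference of −0.19 ± 0.08 did not pass (adjusted p = 0.0775, edgeR). It did pass in 6 alternatives (adjusted p = 4.46e-05 to 0.0471), among them without dhelix FOXP2 + CHIR replicate 5 (−0.23) and without the 3 libraries that stood apart (−0.22). PYGO2, higher in every dhelix FOXP2 + CHIR library (50.3 to 54.4 against 47.2 to 49.7 CPM), did not pass with all libraries but did without those 3 or with only the compared groups in the fit (0.10 each, against 0.12 ± 0.05 with all libraries, adjusted p = 0.11). For CTNNB1 the difference was −0.03 (95% interval −0.09 to 0.03).

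The test of the difference between these contrasts called CTNNB1 alone of the 10, where 8.93% of all genes were positive, 5.29% negative and 14.2% either. Its interaction was 0.24 ± 0.04 (adjusted p = 4.12e-05, edgeR): the gap between the forms was −0.27 without CHIR99021 and −0.03 with it. Without a filter on low counts this call was lost (0.18, adjusted p = 0.0562, edgeR), and no member was called.

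**Figure D5:**
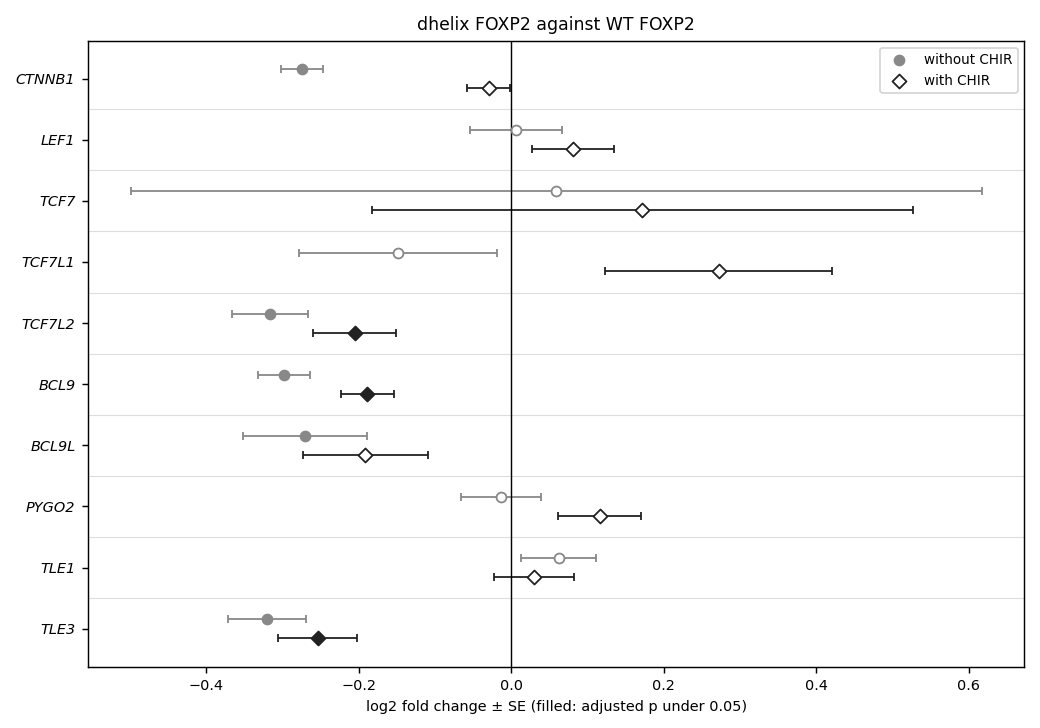
Difference of dhelix FOXP2 from WT FOXP2 for each gene, without and with CHIR, as a log2 difference with its SE; filled symbols have an adjusted p under 0.05. TCF7L2, BCL9 and TLE3 are filled in both conditions, and CTNNB1 moves from −0.27 to −0.03.

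Ordered by group mean, the members fell into different sequences. CTNNB1 ran from mock (427 CPM) through WT FOXP2 (351 CPM), CHIR (295 CPM), dhelix FOXP2 (290 CPM) and WT FOXP2 + CHIR (265 CPM) to dhelix FOXP2 + CHIR (260 CPM). CHIR and dhelix FOXP2 did not differ in the test (adjusted p = 0.433, edgeR), nor did the lowest pair (0.459). LEF1 ran from CHIR (125 CPM) through the pair of FOXP2 groups with CHIR99021 (86.3 CPM for dhelix and 81.7 CPM for WT, adjusted p = 0.276) and mock (39.7 CPM) to the pair without it (30.4 and 30.2 CPM, adjusted p = 0.953). TCF7L1 ran from mock (16.1 CPM) and CHIR (9.69 CPM) to the 4 FOXP2 groups at 2.77 to 3.90 CPM, whose neighbours did not differ in the test. WT FOXP2 + CHIR was nevertheless called lower than WT FOXP2, by 0.48 ± 0.14 (adjusted p = 0.0036, edgeR). TCF7L2 ran from mock (31.6 CPM) through WT FOXP2 (21.3 CPM), CHIR (18.9 CPM), dhelix FOXP2 (17.1 CPM) and WT FOXP2 + CHIR (16.1 CPM) to dhelix FOXP2 + CHIR (13.9 CPM), and of these neighbours dhelix FOXP2 and WT FOXP2 + CHIR did not differ (0.101). TLE3 ran from mock (89.9 CPM) through the WT pair (72.3 and 69.4 CPM, adjusted p = 0.305) and the dhelix pair (58.1 and 58.0 CPM, adjusted p = 0.941) to CHIR alone (39.2 CPM).

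PYGO2 ran from mock (95.6 CPM) and CHIR (67.7 CPM) to WT FOXP2 (58.5 CPM) and dhelix FOXP2 (57.9 CPM), which did not differ (adjusted p = 0.876, edgeR), and then dhelix FOXP2 + CHIR (52.4 CPM) and WT FOXP2 + CHIR (48.4 CPM). BCL9 ran from mock (110 CPM) through WT FOXP2 + CHIR (96.9 CPM), WT FOXP2 (91.4 CPM), CHIR (85.8 CPM) and dhelix FOXP2 + CHIR (84.9 CPM; adjusted p = 0.734 against CHIR) to dhelix FOXP2 (74.3 CPM). BCL9L was highest with WT FOXP2 + CHIR (172 CPM) and lowest in CHIR (115 CPM), and of its neighbours dhelix FOXP2 (138 CPM) and CHIR alone differed in the test. TLE1 was highest in CHIR (45.1 CPM), then mock (40.6 CPM), and its 4 FOXP2 groups lay between 31.7 and 36.2 CPM with no called difference between neighbours. Within each FOXP2 form, though, the group with CHIR99021 was called lower, as given above. TCF7 was highest in mock (0.753 CPM), intermediate in the FOXP2 groups with CHIR99021 (0.404 and 0.348 CPM) and lowest in the other 3 groups (0.0835 to 0.120 CPM), which did not differ in the test.

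Of the pairs of members, CTNNB1 and TCF7L2 were most alike across the 30 libraries (Pearson r 0.96 of log2 CPM), and TCF7L1 and PYGO2 followed (0.94). The lowest r was that of LEF1 with TLE3 (−0.61), and that of CTNNB1 with LEF1 was −0.55. With CHIR99021 CTNNB1 fell and LEF1 rose, but with either FOXP2 form both fell, without and with CHIR99021. Among 10365 genes with a mean of at least 10 CPM, those most like CTNNB1 were RUNX1 (0.98), APBB2 (0.97) and ACVR2B (0.97), those most like LEF1 were IGFL2 (1.00), ATP8A2 (0.99) and HEPHL1 (0.98), and those most like TCF7L2 were KMT2E (0.98), RUNX1 (0.97) and CTDSP2 (0.97). The libraries of a group share their treatment, so these values describe mostly the 6 group means, over which the r of CTNNB1 with RUNX1 was 0.99, of LEF1 with IGFL2 1.00 and of TCF7L2 with KMT2E 0.99.

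Other genes of the pathway were followed as lists. These were chosen with earlier results of these data known, so their counts are no independent support for a change in the pathway. Of 31 tested nuclear cofactors and inhibitors other than the members, 8 rose and 16 fell in CHIR against mock, where 38.8% of all genes were called higher and 35.3% lower. Their median was −0.11, against 0.02 over all genes. Among those with a mean of at least 1 CPM the largest changes were in CXXC4, an inhibitor of Dishevelled, from 22.6 to 3.94 CPM (−2.52 ± 0.10), TLE6, a divergent Groucho relative, from 7.91 to 1.85 CPM (−2.10 ± 0.13), and SOX13, from 38.0 to 10.1 CPM (−1.91 ± 0.08). With WT FOXP2, 12 rose and 17 fell (39.9% and 41.6% of all genes). CXXC4 went to 1.31 CPM, TLE6 to 0.747 CPM (−3.42 ± 0.15) and SOX4, an HMG-box factor, from 99.8 to 9.42 CPM (−3.40 ± 0.10). With dhelix FOXP2, 11 rose and 18 fell (39.6% and 40.9% of all genes), SOX4 to 10.8 CPM. Between the forms, 4 were higher and 15 lower with dhelix FOXP2 (16.9% and 18.7% of all genes), with TLE6 at 1.38 against 0.747 CPM (0.91 ± 0.19), and among the lower ones the histone acetyltransferase gene EP300 differed by −0.34 ± 0.03 (169 against 214 CPM) and TBL1X, a subunit of the NCoR corepressor, by −0.35 ± 0.04 (77.8 against 98.9 CPM). EP300 differed by −0.27 ± 0.03 with CHIR99021 in both arms.

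Of 16 tested genes of the destruction complex, 9 rose and 5 fell in CHIR against mock (38.8% and 35.3% of all genes), with AXIN1, its scaffold, from 29.4 to 47.7 CPM (0.70 ± 0.07) and APC2 from 3.62 to 0.618 CPM (−2.54 ± 0.17). With WT FOXP2, 6 rose and 5 fell (39.9% and 41.6% of all genes). APC2 went from 3.62 to 0.961 CPM (−1.90 ± 0.15), PPP2CA, a phosphatase subunit, from 89.2 to 180 CPM (1.02 ± 0.04) and CSNK1A1, the priming kinase for beta-catenin, from 102 to 188 CPM (0.88 ± 0.03). Between the forms, 8 were lower with dhelix FOXP2 and none higher (18.7% and 16.9% of all genes), CSNK1A1 by 0.29 ± 0.03 to 154 CPM.

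Of 16 tested cadherin and catenin adhesion genes, which bind beta-catenin at the membrane or resemble it, 8 rose and 7 fell in CHIR against mock, 15 of 16 where 74.1% of all genes were called, and CTNNAL1, an alpha-catenin relative, went from 87.8 to 214 CPM (1.28 ± 0.07). With WT FOXP2, 8 rose and 8 fell, where 81.6% of all genes were called: JUP, which encodes plakoglobin, the closest relative of beta-catenin, went from 42.1 to 3.48 CPM (−3.59 ± 0.11), CDH6 from 4.07 to 0.263 CPM (−3.91 ± 0.23) and CTNNA2, an alpha-catenin gene, from 0.394 to 4.72 CPM (3.49 ± 0.19). JUP stood at 4.10 CPM with dhelix FOXP2 and at 32.7 CPM in CHIR. Of 25 listed Wnt feedback and target genes 20 were tested, and DKK1, DKK4, SP5, APCDD1 and WIF1 did not pass the filter. Of the 20, 13 rose and 6 fell in CHIR against mock, where 38.8% of all genes were called higher and 35.3% lower. Their median was 0.97, against 0.02 over all genes, and 13 passed 1.5-fold, where 29.8% of all genes did. Among them FGF20 went from 0.383 to 10.9 CPM (4.82 ± 0.26), TNFRSF19 from 4.30 to 30.8 CPM (2.84 ± 0.12) and LGR5, a stem-cell receptor, from 4.12 to 0.330 CPM (−3.64 ± 0.22). With WT FOXP2, 7 rose and 11 fell (39.9% and 41.6% of all genes), and RNF43, which removes Wnt receptors, went from 56.1 to 1.17 CPM (−5.59 ± 0.20).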

How the data were processed

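RNA was sequenced from 30 libraries of U2OS cells, as paired-end reads of stranded mRNA libraries per the labels' protocols. The authors deposited raw whole-number counts per gene, 1 column per library, with Ensembl IDs and symbols. Per the submitters' processing notes, STAR 2.6.1a, featureCounts, Subread, DESeq2 and the build hg19 were used; which annotation release served, how strand was treated and what unit (read or fragment) was tallied is not stated in those notes or labels. Groups were taken from the labels. The tests used edgeR 4.0.16 in R 4.3.3 (limma 3.58.1) on these counts: TMM scaling, filterByExpr, a robust quasi-likelihood fit of all 6 groups together, and Benjamini-Hochberg adjustment over the 18485 genes tested, in 9 pairs of groups and 3 interactions. A second rule, glmTreat, tested against a 1.5-fold change. SE is the log2 change divided by the root of F. CPM uses TMM-scaled library sizes. Lengths are those of the APPRIS principal transcript in GENCODE v29, which is not the authors' build and gave no coordinates. Members and gene lists were chosen with earlier results of these data known. All 10 members were named whatever their values, with FOXP2 as a check, up to 3 called genes per list and comparison with the largest changes (mean of 1 CPM or more), and the 3 genes most like each of CTNNB1, LEF1 and TCF7L2. Alternatives covered scaling (DESeq2 1.42.0 size factors), filters, DESeq2's Wald test, the groups fitted, a replicate block and libraries left out. The code was tested on simulated data.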

Additional observations from a re-analysis of the deposited data

Results flagged for a closer look

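Of 60 sets of 5 libraries, 1 per member and group, 2 held a library far from the rest, where chance flags about 1 in 20. TCF7L1 was 3.06 CPM in dhelix FOXP2 replicate 5, with the others at 3.56 to 3.68 CPM. TLE1 was 34.8 CPM in dhelix FOXP2 replicate 4, with the others at 36.3 to 36.6 CPM.

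The effect of FOXP2 differed with CHIR99021 by the interaction test (edgeR) for 9 members with WT FOXP2, where 65.6% of all genes were called. The log2 values were 0.13 for CTNNB1, −0.22 for LEF1, 4.68 for TCF7, 0.33 for TCF7L2, 0.44 for BCL9, 0.44 for BCL9L, 0.23 for PYGO2, −0.28 for TLE1 and 1.13 for TLE3. As given above, the calls of CTNNB1 and LEF1 were lost in some alternatives. With dhelix FOXP2 the effect differed for 9 members as well, where 64.8% of all genes were called. The log2 values were 0.38 for CTNNB1, 4.79 for TCF7, 0.67 for TCF7L1, 0.44 for TCF7L2, 0.55 for BCL9, 0.51 for BCL9L, 0.36 for PYGO2, −0.31 for TLE1 and 1.199 for TLE3. The difference between dhelix FOXP2 and WT FOXP2 itself differed with CHIR99021 for CTNNB1 alone of the 10, at 0.24. Among all genes 14.2% were called. The CTNNB1 call was lost without a filter (0.18, adjusted p = 0.0562, edgeR). FOXP2 RNA also differed with CHIR99021, and its part in these values was not tested.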

How the results depend on the processing

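With the replicate numbers of the labels as a replicate block, none of the 120 results for a member in a comparison changed its call, and LEF1 in CHIR against mock stayed at 1.65. The numbers gave little sign of pairing: over 75 same-number pairs the correlation of deviations ran from −0.08 to 0.14, with a median of 0.007. Of these pairs, 22 correlated best with their own number among the 5 libraries of the other group. Whether some libraries were paired cannot be told from these values. The number of members called or past 1.5-fold moved by over 1.5 times in these cases. Removing genes under a mean of 1 CPM took out TCF7 and left 1 member past 1.5-fold in dhelix FOXP2 + CHIR against CHIR, in WT FOXP2 + CHIR against WT FOXP2 and in dhelix FOXP2 + CHIR against dhelix FOXP2; in the second of these, leaving out libraries gave 1 to 2. In dhelix FOXP2 + CHIR against WT FOXP2 + CHIR, 5 members were called with only those groups in the fit and also without the 3 libraries that stood apart. The interaction of the helix deletion with CHIR called 0 without a filter.

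Directions turned only where the change was not called. Leaving out libraries gave −0.032 to 0.046 for LEF1, −0.16 to 0.65 for TCF7 in dhelix FOXP2 against WT FOXP2; −0.087 to 0.52 for TCF7 and −0.0052 to 0.053 for TLE1 in the same contrast with CHIR; −0.025 to 0.025 for BCL9 in dhelix FOXP2 + CHIR against CHIR; −0.039 to 0.024 for TLE3 in dhelix FOXP2 + CHIR against dhelix FOXP2; and −0.47 to 0.45 for TCF7 in the interaction of the helix deletion. PYGO2 in dhelix FOXP2 against WT FOXP2 was 0.031 without a filter, 0.0018 with low means removed and 0.013 without the 3 libraries. BCL9 in dhelix FOXP2 + CHIR against CHIR was 0.0065 with DESeq2 size factors, 0.0070 with FOXP2 left out of library sizes, 0.020 with low means removed, 0.0030 with only the compared groups and 0.0068 in DESeq2. TLE3 in dhelix FOXP2 + CHIR against dhelix FOXP2 was −0.00031 with DESeq2 size factors, −0.085 without a filter, −0.0035 with low means removed, −0.031 with only the compared groups, −0.00022 in DESeq2 and −0.029 without the 3 libraries. TCF7 in the interaction of the helix deletion was −0.025 without the 3 libraries. The cause was not tested. TCF7, at 0 to 24 counts a library, is the member that depth limits. The share of LEF1 among the TCF/LEF genes was also taken with other lengths: it was 55.05% in mock and 86.7% in CHIR by coding length, 45.1% and 81.3% with no length, and, by exon union length, chosen after the data were seen, 46.9% and 82.3%.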
